A study of Homo sapiens with 7 samples.

Results

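The mitochondrial ribosomal protein genes were taken as every row of the expression table whose symbol begins with MRPL or MRPS followed by a digit, without pseudogenes and antisense genes. The rule found 76 of the 23710 genes in the table, 47 with an MRPL and 29 with an MRPS symbol. It used symbols only, and no measured value. RNA was sequenced from the human hepatocellular carcinoma line SNU398, 8 h after a peptide was added at 30 µM. Each of 4 peptides had 1 library: PEN-FFW, PEN-WT, PEN-MUT and PEN, which the labels call penetratin, a peptide known for carrying cargo into cells. As background, PEN-WT joins penetratin to the part of the transcription factor SALL4 that binds the chromatin protein RBBP4, PEN-MUT carries mutations in that part and served as a control, and PEN-FFW is an engineered variant of it. All 4 libraries come from the same line with no added gene or deletion named in the labels, and a library from cells without peptide is not analysed here.

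Mitochondria keep their own ribosome, which translates only the mRNAs of the mitochondrial genome, and those encode core subunits of the respiratory chain and the ATP synthase. Its RNAs are made in the mitochondrion, whereas all of its proteins are encoded in the nucleus, made in the cytosol and imported. The large subunit, whose proteins mostly have MRPL symbols, holds the peptidyl transferase centre and the exit tunnel. The small subunit, whose proteins mostly have MRPS symbols, holds the mRNA and the decoding site. Part of these proteins descend from bacterial ribosomal proteins, and the rest were gained in mitochondria.

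The libraries held between 27347377 reads in genes (PEN-FFW) and 40717633 (PEN-WT), recovered from the deposited values as described under the processing. PEN-FFW had the fewest reads and the most genes above the lowest deposited value (15771, against 15459 with PEN-WT, 15230 with PEN-MUT and 15442 with PEN). The labelled cell type was only partly visible in its markers: of 11 hepatocyte and hepatoma markers, SALL4, GPC3 and ALB passed the filter on low counts, while APOB, TTR, SERPINA1, HNF4A, KRT8 and KRT18 stood at the lowest deposited value in every library. Of 8 markers of other cell types, COL1A1, DCN, EPCAM and PTPRC passed the filter and CD3E, PECAM1, VWF and KRT19 stood at the lowest value. The summed level of these 8 markers was 2595 normalized counts with PEN-FFW, 3385 with PEN-WT, 3775 with PEN-MUT and 3421 with PEN. The 4 above the filter did not share an order: COL1A1 was highest in PEN-FFW (221, against 182 with PEN-WT, 156 with PEN-MUT and 127 with PEN). DCN (1355, against 1819, 2153 and 1856), EPCAM (701, against 1002, 1073 and 1087) and PTPRC (298, against 362, 373 and 331) were lowest in it. The sum and these counts are on the authors' scale, where the median of all genes was also lowest in PEN-FFW (945, against 1154, 1136 and 1125). Relative to the median gene, DCN and EPCAM stayed below it in PEN-FFW against each other peptide. PTPRC was then at 0.12 ± 0.10 (counting standard error) against PEN, 0.03 against PEN-WT and -0.02 against PEN-MUT. Their part in the differences below was not tested. In a bulk library, fewer cells that express a gene and less of its RNA per cell cannot be told apart.

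Members were expressed at different levels, which are compared here as normalized counts per kilobase of the longest or canonical annotated transcript, averaged over the 4 libraries. Among the 75 members above the filter, a mean normalized count of at least 50, the median was 1437 per kilobase. The highest were MRPL51 (4283), MRPS7 (4025), MRPL37 (3468), MRPL27 (3413) and MRPL3 (3294). MRPS7 is the ortholog of a bacterial small-subunit protein that nucleates the head of that subunit, and MRPL3 is the ortholog of a bacterial protein that lies close to the peptidyl transferase centre. The lowest above the filter were MRPL42 (203), MRPS33 (223), MRPS18C (273) and MRPL22 (334), 21.0-fold between the extremes. The low value of MRPL42 goes with an annotated transcript of 15557 bases, and its counts (2449 with PEN-FFW, 3221 with PEN-WT, 3482 with PEN-MUT and 3510 with PEN) were above the members' median.

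MRPS24, which encodes a small-subunit protein, was the 1 member below the filter. It was listed at 5 with PEN-FFW, 5.43 with PEN-WT, 7 with PEN-MUT and 5 with PEN, where 5 is the lowest value the table holds. Its annotated exons overlap those of the readthrough gene URGCP-MRPS24 over 90.9% of their length, so reads there cannot be assigned to either gene alone. The row of URGCP-MRPS24 stood at 5 in all 4 libraries. Whether reads of the shared exons were left out in the counting was not tested, and no difference is given for MRPS24. Of all members, 10 share more than 10% of their exon length with another gene of the table. Apart from MRPS24, the overlap was largest for MRPL53 with CCDC142 (99.2%) and MRPS18A with RSPH9 (60.6%). The counting strand is not given in the sources used here.

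**Figure D1:**
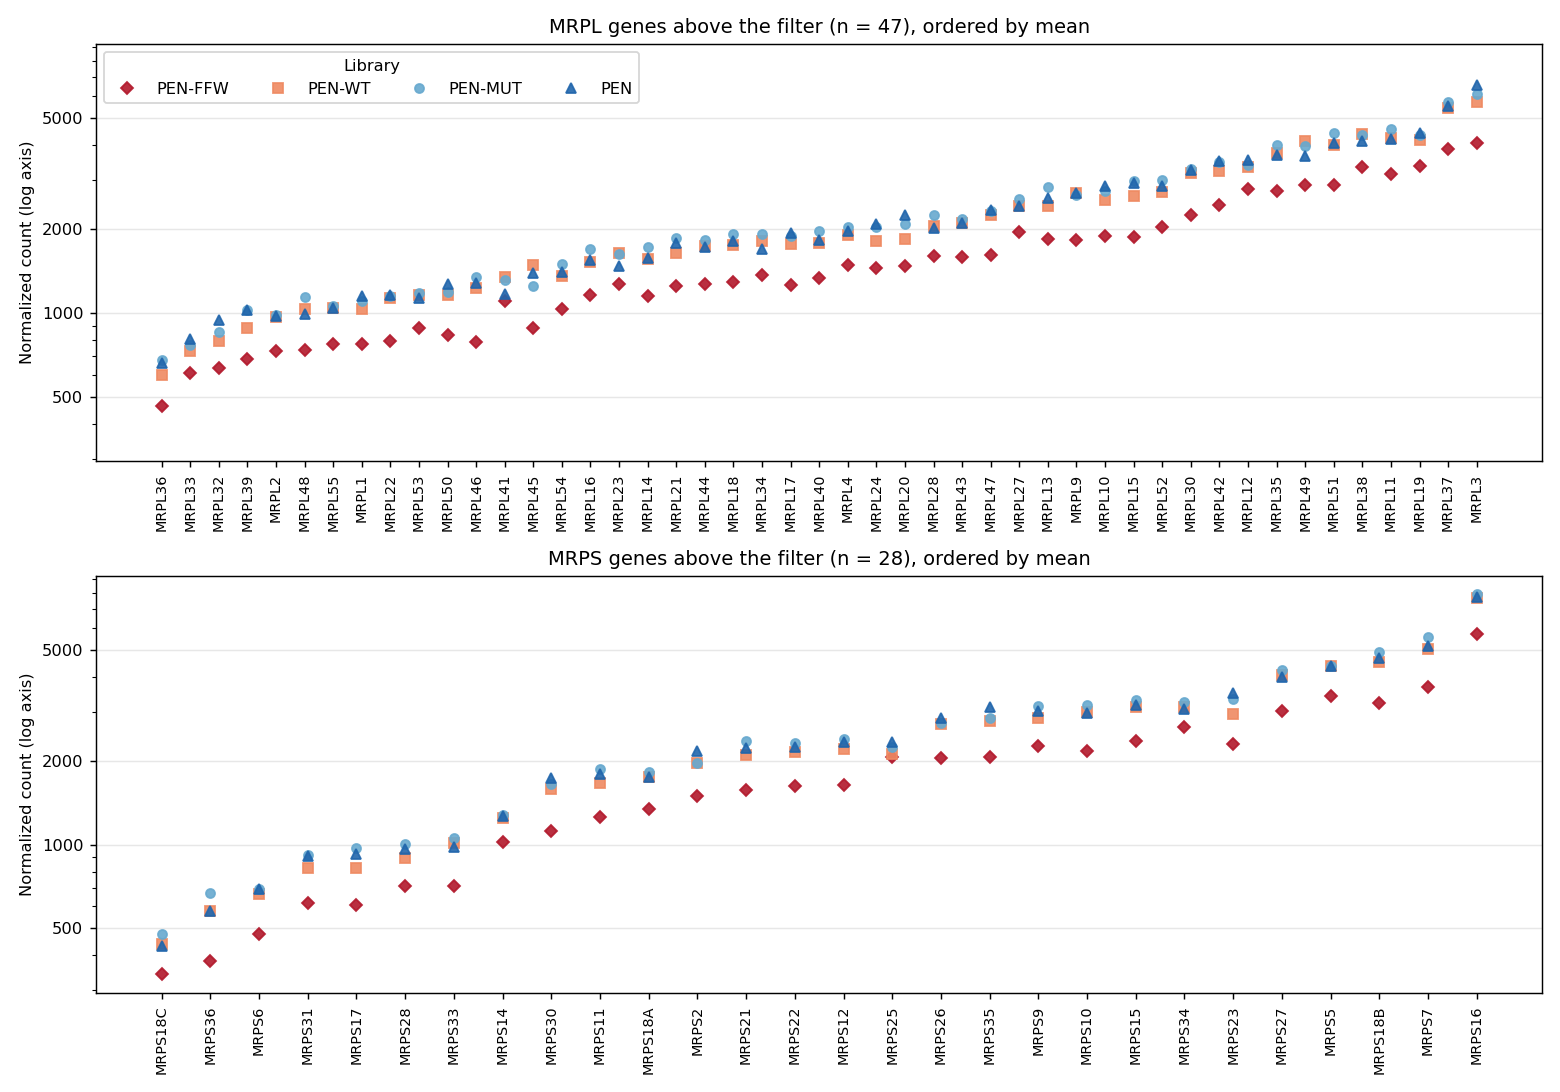
Normalized count (log axis) of each of the 75 members above the filter in the PEN-FFW (diamonds), PEN-WT (squares), PEN-MUT (circles) and PEN (triangles) libraries, MRPL genes above and MRPS genes below, ordered by mean. For all 75 genes the PEN-FFW point is the lowest of the 4 on the authors' scale, from 344 for MRPS18C upwards. On that scale the median of all 12578 genes above the filter is also lowest in PEN-FFW (945, against 1154 with PEN-WT, 1136 with PEN-MUT and 1125 with PEN). The share of all genes that are lowest there was not counted.

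Summed over all members, the level was 5125 RPM (reads per 1000000 reads in genes) with PEN-FFW (95% counting interval 5098 to 5152), 5451 with PEN-WT (5429 to 5474), 5699 with PEN-MUT (5673 to 5726) and 5625 with PEN (5601 to 5649). PEN-FFW was lowest, PEN-WT next, and the PEN-MUT and PEN libraries were highest and closest to each other. The intervals cover counting error only, and with 1 library per peptide no spread between cultures is known. Over the 6 pairs, the ratio of these sums was 0.911 for PEN-FFW over PEN (0.905 to 0.917), 0.899 for PEN-FFW over PEN-MUT (0.893 to 0.905) and 0.940 for PEN-FFW over PEN-WT (0.934 to 0.946). It was 0.969 for PEN-WT over PEN (0.963 to 0.975), 0.956 for PEN-WT over PEN-MUT (0.951 to 0.962) and 1.013 for PEN-MUT over PEN (1.007 to 1.020). The 6 pairs share libraries, so they are not independent of each other.

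On the authors' scale, the member at the median had 1482 normalized counts with PEN-FFW, 1899 with PEN-WT, 2035 with PEN-MUT and 2091 with PEN. The median of all 12578 genes above the filter moved too: 945 with PEN-FFW, 1154 with PEN-WT, 1136 with PEN-MUT and 1125 with PEN. Differences for single genes are therefore given as log2(normalized count + 10) of the first library minus the second, relative to the median gene of that pair. That median gene differed by -0.27 in PEN-FFW against PEN, -0.30 against PEN-MUT and -0.30 against PEN-WT before it was set to 0. Each value carries a counting standard error (SE). Relative to the median gene, 68 of 75 members (90.7%) were lowest of the 4 libraries in PEN-FFW, against 4423 of all 12578 genes (35.2%).

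Against PEN, the members stood low in PEN-FFW as a group and none stood apart by a large factor. Their median was -0.20, with quartiles of -0.27 and -0.14, where all genes had a median of 0 and quartiles of -0.15 and 0.21. Of the 75 members, 71 lay below the median gene. A gene was called when it lay at least 0.32 on the log2 scale from the median gene: 11 members were called lower, against 5.67% of all genes, and 0 higher, against 17.0% of all genes. At 1.5-fold, 0 members were called lower (0.437% of all genes) and 0 higher (7.24%). The 95% counting interval lay below the median gene for 63 members, where 30.9% of all genes did so, and above it for 2, where 30.6% of all genes did so.

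MRPL46, a large-subunit protein with a Nudix-like fold and no ortholog in the bacterial ribosome, had the lowest difference. It lies at chr15:89002709-89010619 on the minus strand (GRCh37). It had 785 normalized counts with PEN-FFW, 1231 with PEN-WT, 1348 with PEN-MUT and 1282 with PEN, which put the PEN-FFW library apart from the other three. Its difference was -0.43 ± 0.06 (SE) in PEN-FFW against PEN. MRPL3 (chr3:131181056-131221815, minus strand) had 4074 normalized counts with PEN-FFW, 5733 with PEN-WT, 6121 with PEN-MUT and 6579 with PEN. PEN-FFW was lowest, PEN-WT next and PEN highest, and the difference against PEN was -0.42 ± 0.03 with PEN-FFW and -0.23 ± 0.02 with PEN-WT.

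MRPL45, which sits at the tunnel exit and faces the inner membrane, had 885 normalized counts with PEN-FFW, 1484 with PEN-WT, 1252 with PEN-MUT and 1397 with PEN. It lies at chr17:36453134-36479094 on the plus strand. PEN-FFW was lowest and PEN-WT highest, a different order from that of MRPL3, and the difference in PEN-FFW against PEN was -0.38 ± 0.06. MRPL45 has pseudogene copies, and how the counting divided reads among them is unknown. MRPL15 (chr8:55047801-55061074, plus strand), the ortholog of a bacterial core protein of the large subunit, had 1874 with PEN-FFW, 2628 with PEN-WT, 2969 with PEN-MUT and 2918 with PEN, a difference of -0.37 ± 0.04 in PEN-FFW against PEN.

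The other 7 members called lower in PEN-FFW against PEN were MRPS30 (-0.36 ± 0.05), MRPL17 (-0.34), MRPL50 (-0.34), MRPS17 (-0.33 ± 0.07), MRPS23 (-0.33 ± 0.04), MRPL20 (-0.33 ± 0.05) and MRPS35 (-0.32 ± 0.04). MRPL10, a stalk protein at -0.32 ± 0.04, lay just short of the threshold. The count of 11 depended on the centring and the filter. It was 5 with a filter at 200 (4.18% of all genes), 5 relative to genes of the same mean count (7.35%) and 25 with no filter (9.03%). With RPM scaling the values were not centred on the median gene, which lay at 0.05, and the count was 3 (3.24%). On the authors' scale, also without centring, the count was 67, where 41.3% of all genes were lower and 7.08% higher.

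The 4 members at the upper end were MRPL41 (0.20 ± 0.06), MRPS25 (0.09 ± 0.04), MRPS34 (0.06 ± 0.04) and MRPL23 (0.06 ± 0.05). MRPL41, a large-subunit protein at chr9:140446331-140447007 on the plus strand, had 1108 normalized counts with PEN-FFW, 1351 with PEN-WT, 1318 with PEN-MUT and 1167 with PEN. Its PEN-FFW and PEN values were the lower pair, so it stood above the median gene in every library set against PEN: 0.20 with PEN-FFW, 0.18 ± 0.05 with PEN-WT and 0.15 ± 0.06 with PEN-MUT. MRPS25, a small-subunit protein at chr3:15090019-15106822 on the minus strand, had 2063 with PEN-FFW, 2117 with PEN-WT, 2244 with PEN-MUT and 2340 with PEN. Relative to their level, its 4 values were the closest together of the members named here. MRPS25 shares 18.6% of its exon length with NR2C2 and MRPS34 shares 32.6% with EME2.

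The sequences around the start sites of members at both ends of this order are shown because the data place them apart, and because MRPL46 and MRPS11 are themselves neighbours on chromosome 15. They are RefSeq sequences on GRCh38.p14, 5′ to 3′ on the gene's strand, from 150 bases before the start to 30 bases after it. Capitals mark the letters AAGATGGC, a core of sites bound by the factor YY1, or CCGGAAG, a core of sites bound by ETS factors such as GABPA, on either strand (reversed, GCCATCTT and CTTCCGG). Low in PEN-FFW were MRPL46 (chr15:88467359-88467538, minus strand), MRPL3 (chr3:131502942-131503121, minus strand) and MRPL45 (chr17:38297018-38297197, plus strand). MRPS11 (chr15:88467558-88467737, plus strand) starts 320 bases from MRPL46 on the other strand. At the upper end were MRPL41 (chr9:137551729-137551908, plus strand), MRPS25 (chr3:15065286-15065465, minus strand) and MRPS34 (chr16:1773105-1773284, minus strand).
MRPL46: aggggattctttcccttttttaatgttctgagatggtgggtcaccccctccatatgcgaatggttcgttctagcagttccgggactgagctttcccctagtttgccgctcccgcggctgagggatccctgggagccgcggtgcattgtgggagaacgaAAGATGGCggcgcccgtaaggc
MRPS11: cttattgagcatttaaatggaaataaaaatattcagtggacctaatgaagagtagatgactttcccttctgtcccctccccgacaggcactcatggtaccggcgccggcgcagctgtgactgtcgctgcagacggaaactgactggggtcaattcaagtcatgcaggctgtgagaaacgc
MRPL3: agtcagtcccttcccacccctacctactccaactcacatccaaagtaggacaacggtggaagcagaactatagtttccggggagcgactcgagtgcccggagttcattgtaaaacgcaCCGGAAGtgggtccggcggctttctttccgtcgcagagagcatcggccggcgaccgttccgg
MRPL45: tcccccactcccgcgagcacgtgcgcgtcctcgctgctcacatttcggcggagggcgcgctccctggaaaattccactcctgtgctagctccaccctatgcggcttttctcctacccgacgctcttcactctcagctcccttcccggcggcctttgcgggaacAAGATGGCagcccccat
MRPL41: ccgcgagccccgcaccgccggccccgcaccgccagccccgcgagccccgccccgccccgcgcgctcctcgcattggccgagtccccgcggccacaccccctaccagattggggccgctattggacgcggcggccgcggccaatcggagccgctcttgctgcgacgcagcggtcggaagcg
MRPS25: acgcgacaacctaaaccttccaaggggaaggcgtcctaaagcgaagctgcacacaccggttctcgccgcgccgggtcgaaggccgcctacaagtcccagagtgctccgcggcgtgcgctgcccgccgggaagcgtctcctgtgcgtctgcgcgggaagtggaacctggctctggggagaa
MRPS34: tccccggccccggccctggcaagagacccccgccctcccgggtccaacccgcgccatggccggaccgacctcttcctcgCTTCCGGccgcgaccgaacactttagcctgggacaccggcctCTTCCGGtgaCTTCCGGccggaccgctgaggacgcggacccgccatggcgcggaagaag
The windows of MRPL46 and MRPL45 held AAGATGGC shortly after the start. The windows of MRPL3 and MRPS34 held CCGGAAG, and those of MRPS11, MRPL41 and MRPS25 held neither. Among the few windows shown, which were picked by this order or as a neighbour, AAGATGGC stood at the lower end and CCGGAAG at both ends. This did not hold beyond them: MRPL38, not shown, also held AAGATGGC shortly after its start. It stood near the upper end, at -0.03 ± 0.03 in PEN-FFW against PEN. Medians of the members with and without each sequence are given below.

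Against PEN-MUT, the members stood about as low in PEN-FFW as they did against PEN. Their median was -0.22 with quartiles of -0.26 and -0.16, where all genes had quartiles of -0.13 and 0.19, and 71 of 75 lay below the median gene. At that threshold, 5 members were called lower, against 2.49% of all genes, and 0 higher, against 16.5%. The counting interval lay below the median gene for 63 members (28.8% of all genes) and above it for MRPS25 (29.0% of all genes). At 1.5-fold 0 members were lower (0.0875% of all genes) and 0 higher (7.24%).

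MRPS36 had the lowest difference from PEN-MUT. Despite its symbol, this protein is now known as KGD4, a component of the alpha-ketoglutarate dehydrogenase complex of the citric acid cycle, and not a ribosomal subunit. It had 383 normalized counts with PEN-FFW, 578 with PEN-WT, 673 with PEN-MUT and 578 with PEN. PEN-FFW was lowest and PEN-MUT highest, and PEN-WT and PEN were alike. Its difference was -0.50 ± 0.09 in PEN-FFW against PEN-MUT, and -0.31 ± 0.09 against PEN, just short of the threshold.

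The other 4 called lower against PEN-MUT were MRPL46 (-0.47 ± 0.06), MRPS17 (-0.38 ± 0.07), MRPL15 (-0.36 ± 0.04) and MRPL48 (-0.33 ± 0.07). MRPS17 is the ortholog of a bacterial protein that binds the RNA of the small subunit. It had 605 normalized counts with PEN-FFW, 824 with PEN-WT, 973 with PEN-MUT and 924 with PEN, with PEN-WT between PEN-FFW and both controls. MRPL46, MRPL15 and MRPS17 were the members called lower in PEN-FFW against both PEN and PEN-MUT, 2 comparisons that share the PEN-FFW library.

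The highest differences from PEN-MUT were those of MRPS25 (0.18 ± 0.04), MRPL41 (0.05 ± 0.06), MRPL12 (0.02 ± 0.04) and MRPS34 (0.01 ± 0.04). The members' median was -0.12 relative to genes of the same transcript length, with 3 called lower (1.72% of all genes). With no filter the count was 22 (6.03%). Without centring on the median gene, it was 3 with RPM scaling (1.44%) and 8 with median-ratio size factors (4.01%).

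Against PEN-WT, the members were lower in PEN-FFW by a smaller median. It was -0.11 with quartiles of -0.16 and -0.06, where all genes had quartiles of -0.10 and 0.14, and 69 of 75 lay below the median gene. MRPL45 (-0.44 ± 0.06) and MRPL46 (-0.34 ± 0.06) were called lower, 2 of 75 members against 1.29% of all genes, and 0 were called higher, against 11.2%. At 1.5-fold there were 0 lower (0.0318% of all genes) and 0 higher (4.17%). The counting interval lay below the median gene for 45 members (23.6% of all genes) and above it for MRPS25 and MRPS34 (24.5%). Next came MRPS36 (-0.28 ± 0.09) and MRPL9 (-0.26 ± 0.04), which did not pass the threshold. At the upper end were MRPS25 (0.26 ± 0.04), MRPS34 (0.07 ± 0.04), MRPL12 (0.05 ± 0.03) and MRPL33 (0.04 ± 0.07). Relative to genes of the same length the median was -0.05, with 1 of 75 members called lower, where 0.891% of all genes were.

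The members' median shift was smaller in PEN-WT than in PEN-FFW against the same control peptides, but most members lay below the median gene. Against PEN their median was -0.07, where all genes had quartiles of -0.10 and 0.12, and 67 of 75 lay below the median gene. No member was called: 0 lower, against 3.53% of all genes, and 0 higher, against 5.93%. The counting interval lay below the median gene for 39 members (25.4% of all genes) and above it for 4 (23.1%). The lowest were MRPL20 (-0.31 ± 0.04), MRPS23 (-0.28 ± 0.03), MRPL32 (-0.28 ± 0.06) and MRPL39 (-0.24 ± 0.06), and the highest were MRPL41 (0.18 ± 0.05), MRPL49 (0.15 ± 0.03), MRPL23 (0.13 ± 0.05) and MRPL34 (0.06 ± 0.04). MRPL20 had 1472 normalized counts with PEN-FFW, 1847 with PEN-WT, 2079 with PEN-MUT and 2241 with PEN, so that PEN-WT lay nearer to PEN-MUT than to PEN. MRPL32 is known as a substrate that the m-AAA protease of the inner membrane must cut before the ribosome is assembled, and MRPL39 resembles a tRNA synthetase without being one.

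Against PEN-MUT, the members' median in PEN-WT was -0.09, where all genes had quartiles of -0.08 and 0.11, and 69 of 75 lay below the median gene. Again 0 members were called lower, against 0.596% of all genes, and 0 higher, against 5.57%. The counting interval lay below the median gene for 43 members (19.5% of all genes) and above it for MRPL45 and MRPL49 (19.7%). The lowest were MRPS17 (-0.24 ± 0.06), MRPL13 (-0.23 ± 0.04), MRPS36 (-0.22 ± 0.08) and MRPL39 (-0.21 ± 0.06). MRPL45 was highest at 0.24 ± 0.05, followed by MRPL49 (0.07 ± 0.03), MRPL41 (0.03 ± 0.05) and MRPL23 (0.02 ± 0.05).

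The members' median differed less between the control peptides than between either of them and PEN-FFW. In PEN-MUT against PEN the members' median was 0.03, where all genes had quartiles of -0.09 and 0.08, and 29 of 75 lay below the median gene. Relative to genes of the same length it was -0.0020. At the same threshold 0 members were called lower, against 3.14% of all genes, and 0 higher, against 2.26%. The counting interval lay below the median gene for 12 members (19.4% of all genes) and above it for 14 (17.9%), shares close to the background. The lowest were MRPL45 (-0.18 ± 0.05), MRPL32 (-0.17 ± 0.07), MRPS2 (-0.16 ± 0.04) and MRPS35 (-0.16 ± 0.04), and the highest were MRPS36 (0.20 ± 0.08), MRPL48 (0.18 ± 0.06), MRPL34 (0.16 ± 0.05) and MRPL41 (0.15 ± 0.06). The choice of control therefore moved single members: MRPL45 stood at -0.38 in PEN-FFW against PEN and at -0.20 ± 0.06 against PEN-MUT, whereas MRPL48 stood at -0.16 ± 0.07 and -0.33 in the same comparisons.

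**Figure D2:**
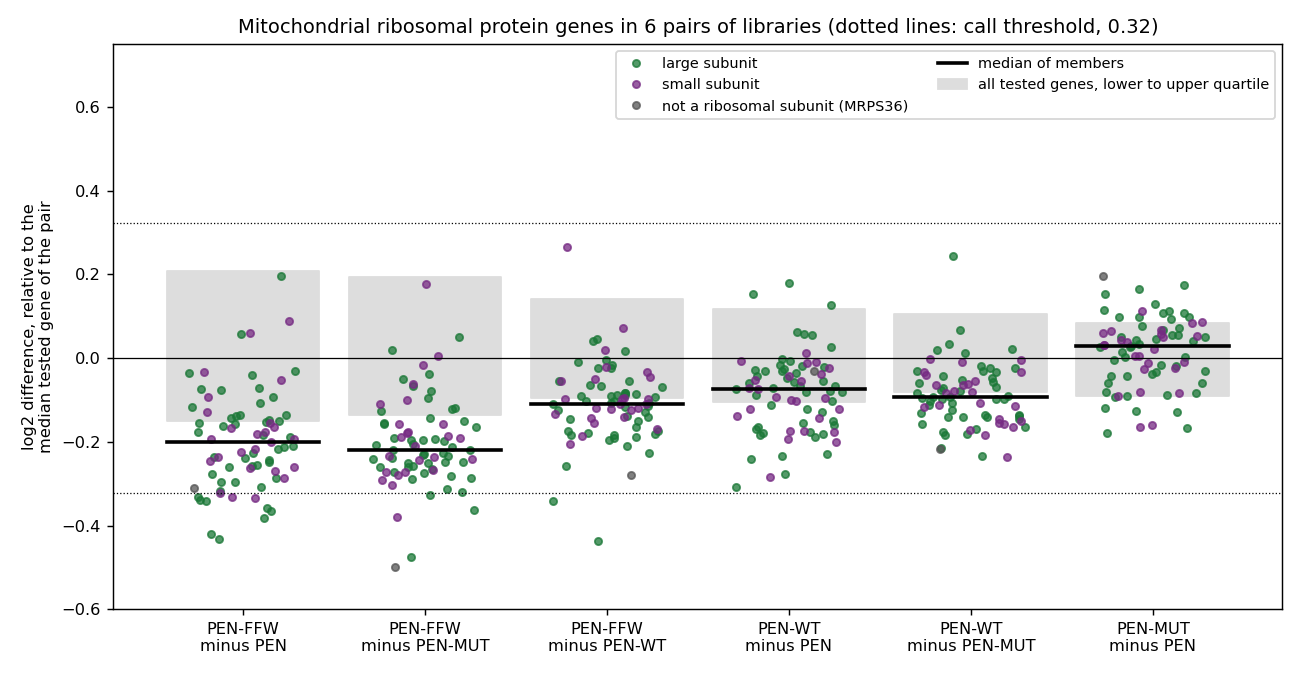
Log2 difference of each member, relative to the median gene, in the 6 pairs of libraries (points, coloured by subunit), with the members' median (black bar), the quartile range of all genes above the filter (grey) and the threshold lines at 0.32 (dotted). The members' median is -0.20, -0.22 and -0.11 in PEN-FFW against PEN, PEN-MUT and PEN-WT, -0.07 and -0.09 in PEN-WT against PEN and PEN-MUT, and 0.03 in PEN-MUT against PEN.

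**Figure D3:**
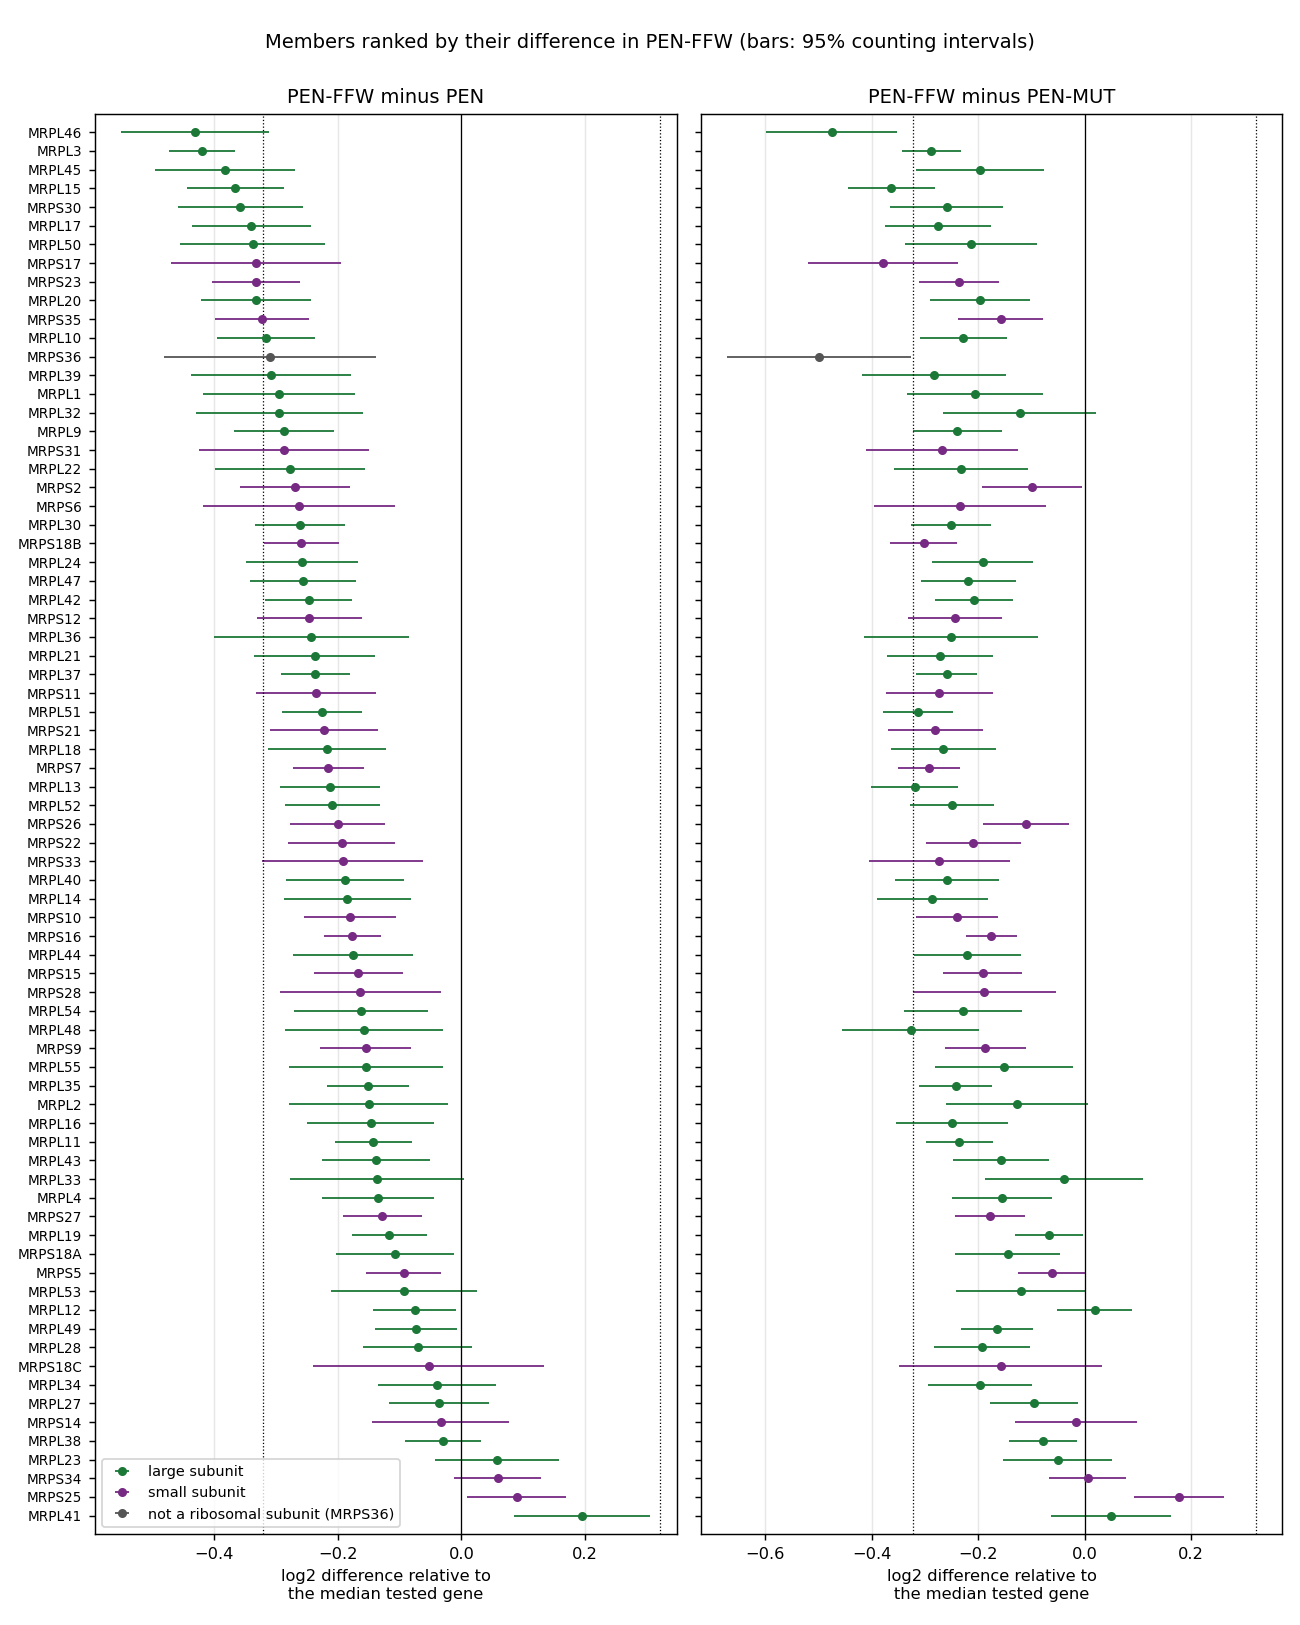
All 75 members above the filter, ranked by their log2 difference in PEN-FFW against PEN (left) and in the same order against PEN-MUT (right), with 95% counting intervals and dotted threshold lines at 0.32. MRPL46 is at the top of the left panel at -0.43 and MRPL41 at its foot at 0.20, and 71 of 75 points lie left of 0 in each panel.

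The members differed among themselves by more than counting alone gives. In PEN-FFW against PEN the standard deviation over the 75 members was 0.118, against a median counting standard error of 0.046, and in PEN-MUT against PEN it was 0.085 against 0.043. All genes above the filter had a standard deviation of 0.339 in PEN-FFW against PEN. Differences between cultures of the same treatment would add to the members' spread and were not measured.

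The large and the small subunit gave nearly the same medians. The 49 large-subunit genes had a median of -0.21 in PEN-FFW against PEN and -0.22 against PEN-MUT, and the 25 small-subunit genes above the filter had -0.19 and -0.19. Of these, 47 of 49 and 23 of 25 lay below the median gene in each comparison. By origin, the 45 proteins classed as orthologs of bacterial proteins had medians of -0.21 and -0.22. The 29 classed as specific to mitochondria had -0.19 and -0.21. The latter class holds MRPS18A and MRPS18B, although their paralog MRPS18C is classed as a bacterial ortholog. Both classes spanned the order, with MRPL3 and MRPL15 (bacterial orthologs) and MRPL46 and MRPL45 (mitochondrial) at its lower end.

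Some symbols do not give the place of the protein. MRPS30 and MRPS18A sit in the large subunit of the human mitochondrial ribosome. MRPS30 had 1121 normalized counts with PEN-FFW, 1577 with PEN-WT, 1654 with PEN-MUT and 1737 with PEN, lowest in PEN-FFW, and its difference from PEN-MUT was -0.26 ± 0.05. The 3 MRPS18 paralogs, which share descent from a single bacterial protein, did not take the same values. In PEN-FFW against PEN, MRPS18B was at -0.26 ± 0.03, MRPS18A at -0.11 ± 0.05 and MRPS18C at -0.05 ± 0.10. MRPS18C was the least counted of them, at 344 normalized counts with PEN-FFW, 440 with PEN-WT, 476 with PEN-MUT and 433 with PEN, and its 95% counting interval holds the value of MRPS18A.

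The stalk of the large subunit, which recruits translation factors, is formed by MRPL10 and MRPL12. MRPL12, which is also reported to bind the mitochondrial RNA polymerase, had 2792 normalized counts with PEN-FFW, 3336 with PEN-WT, 3390 with PEN-MUT and 3550 with PEN. MRPL10 had 1893 with PEN-FFW, 2552 with PEN-WT, 2729 with PEN-MUT and 2847 with PEN. Both were lowest in PEN-FFW, but relative to the median gene MRPL12 was at -0.08 ± 0.03 against PEN and 0.02 against PEN-MUT, and MRPL10 at -0.32 and -0.23 ± 0.04.

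By their medians, the members were shorter and more highly counted than all genes, at a like GC content. Their median transcript length was 1260 bases, against 3376 for all genes above the filter, their median mean count was 1895, against 1091, and their median GC content was 48.0%, against 48.2%. Over the 75 members, Spearman's rho between the PEN-FFW against PEN difference and GC content was 0.37, and over the 12231 genes with a known sequence it was 0.36. With transcript length rho was -0.18 over the members and 0.19 over all genes, and with the mean count it was 0.12 and -0.38, so for both the sign among the members was the opposite of that among all genes. The points share the same libraries, and genes are not independent replicates. In 3 groups of 25 members by GC content, the medians were -0.21, -0.24 and -0.14 from the lowest to the highest GC, with 3, 8 and 0 called lower. Of all genes above the filter in the same ranges of GC content, 8.05%, 6.70% and 2.96% were called lower, and their medians were -0.08, -0.03 and 0.12. Set against genes of like GC content, the members' median was -0.20 in PEN-FFW against PEN. Against genes of like mean count it was -0.16, and against genes of like length -0.13, all below 0.

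The 4 libraries form 3 pairings of comparisons with no library in common. Spearman's rho between PEN-FFW against PEN and PEN-WT against PEN-MUT was 0.32 over the 75 members, where all 12578 genes gave 0.51. Between PEN-FFW against PEN-MUT and PEN-WT against PEN it was 0.22 for the members and 0.41 for all genes. Between PEN-FFW against PEN-WT and PEN-MUT against PEN it was -0.06 for the members and -0.08 for all genes, so the sign was not shared by the 3 pairings. These values are descriptions, since genes of 1 library share its depth and composition.

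Members lie on 21 chromosomes, with 8 each on chromosomes 1 and 2. The RefSeq table held a promoter, from 250 bases before to 50 bases after the start, for 68 of the 76 members. AAGATGGC stood on either strand in 20 of the 68 (29.4%), where 3.03% of all 27305 promoters and 5.74% of the 9163 promoters of genes above the filter held it. In 15 of these 20 genes it began after the start, as in MRPL46. CCGGAAG stood in 28 (41.2%), where the shares were 10.7% and 19.7%, and 22 of the 28 had it wholly before the start. Either sequence stood in 40 members (58.8%), against 24.1% of promoters of genes above the filter, and 8 members held both. The matches are letters in a window, and binding was not measured.

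The other 3 sequences searched were nearer to the background. The core of NRF1 sites, GCGC then any base then TGCGC, stood in 7 members (10.3%, against 12.1% of promoters of genes above the filter). CACGTG, the E-box bound by MYC and related factors, stood in 7 (10.3%, against 10.4%), and GGGCGG, a core of SP1 sites, in 42 (61.8%, against 71.5%). Both strands were read, and bases shared by overlapping matches counted for each. Members with AAGATGGC had a median of -0.25 in PEN-FFW against PEN (19 genes above the filter) and members without it -0.18 (48 genes). With CCGGAAG the medians were -0.18 (28 genes) and without it -0.24 (39 genes). Against PEN-MUT the medians with and without AAGATGGC were -0.23 and -0.20, and those with and without CCGGAAG were -0.22 and -0.21, so the order of the CCGGAAG medians turned with the control. Whether members with and without a sequence differ was not tested.

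Many members share a promoter region with a gene on the other strand. A protein-coding gene started within 1000 bases on the opposite strand for 25 of 76 members (32.9%), against 9.37% of 20149 protein-coding genes in the annotation. The 9.37% covers all annotated genes, whether or not above the filter, and the share among genes above it was not counted. MRPL46 and MRPS11 are each other's neighbour, and both lay below the median gene: MRPS11, the ortholog of a bacterial small-subunit protein, had 1256 normalized counts with PEN-FFW, 1660 with PEN-WT, 1871 with PEN-MUT and 1788 with PEN. Its difference was -0.24 in PEN-FFW against PEN, beside -0.43 for MRPL46. For the other neighbours, 20 were above the filter and were not members. Their median was 0.07 in PEN-FFW against PEN and 0.07 against PEN-MUT, where the members beside them had -0.22 and -0.25, and 9 of the 20 lay below the median gene. CYB5RL, which starts 137 bases from MRPL37, stood at 0.29 where MRPL37 stood at -0.24. FAU, which encodes a ubiquitin-like protein fused to a cytosolic ribosomal protein and starts 187 bases from MRPL49, stood at -0.17 where MRPL49 stood at -0.07.

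**Figure D4:**
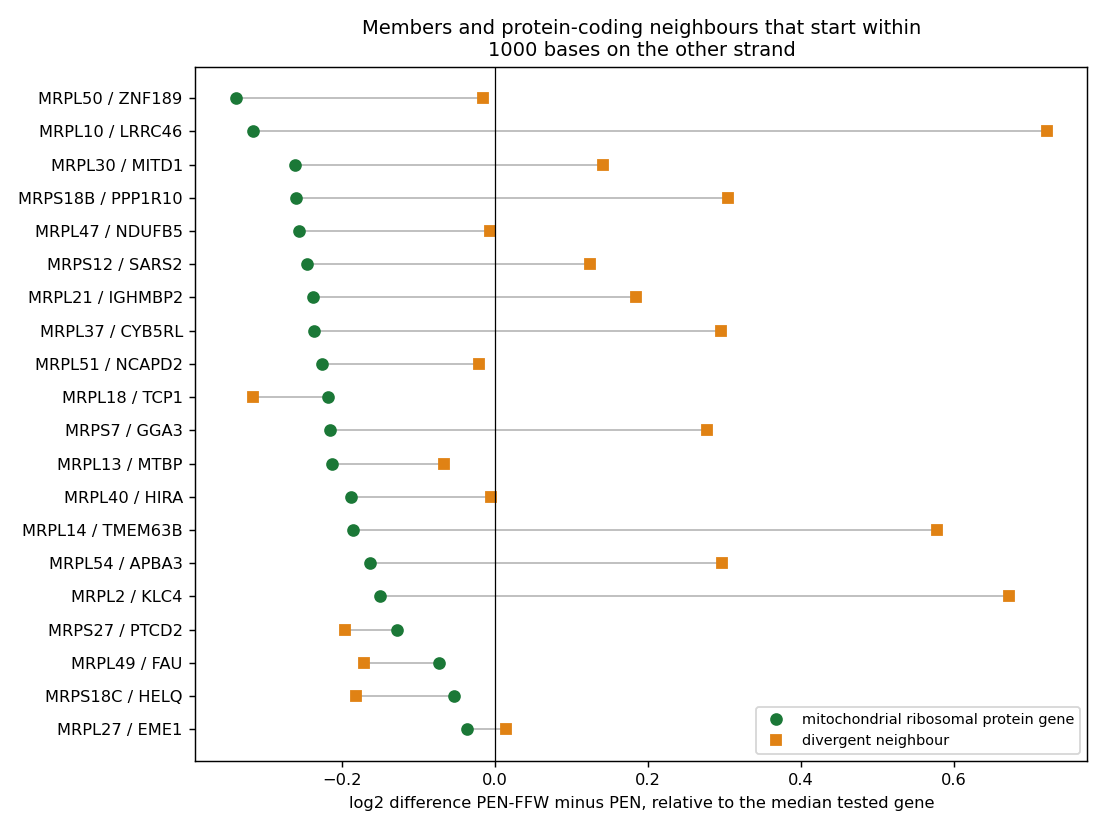
Log2 difference in PEN-FFW against PEN, relative to the median gene, for 20 members (circles) and the protein-coding gene that starts within 1000 bases on the other strand (squares), ordered by the member. The members have a median of -0.22 and all lie left of 0, whereas the neighbours have a median of 0.07 and 11 of 20 lie right of 0.

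The other gene lists of mitochondrial translation had medians between -0.17 and -0.07 in PEN-FFW against PEN. The 7 subunits of the mitochondrial ribosome with other symbols all lay below the median gene (median -0.17). Of these 7, 0 were called lower and 0 higher, where 5.67% and 17.0% of all genes were. DAP3, a GTP-binding protein of the small subunit, was lowest with 3271 normalized counts with PEN-FFW, 4406 with PEN-WT, 4882 with PEN-MUT and 4823 with PEN, lowest in PEN-FFW, a difference of -0.29 ± 0.03. The others farthest from PEN were MRP63 (-0.18 ± 0.05), ICT1 (-0.17 ± 0.06) and AURKAIP1 (-0.17 ± 0.03). Of 28 genes of ribosome assembly and rRNA modification above the filter, 23 lay below the median gene, and the median was -0.10. Of the 28, 1 was called lower, against 5.67% of all genes, and 0 higher, against 17.0%. The gene called was C1QBP, a matrix protein needed for mitochondrial translation, at -0.33 ± 0.03, and MTERFD1 (-0.29), MALSU1 (-0.28) and MRM1 (-0.26) followed.

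Of 16 mitochondrial translation factors and partners, 15 lay below the median gene and the median was -0.17. SLIRP, which stabilises mitochondrial mRNAs, was called lower at -0.39 ± 0.04, 1 of 16 against 5.67% of all genes. MTIF2, an initiation factor, was at -0.29, OXA1L, the insertase that binds the mitochondrial ribosome, at -0.28, and MTFMT, which formylates the initiator tRNA, at -0.24 ± 0.08. The 20 mitochondrial aminoacyl-tRNA synthetases had a median of -0.07. MARS2 was called lower (-0.40 ± 0.07), 1 of 20 against 5.67% of all genes. AARS2 was called higher (0.34 ± 0.04), 1 of 20 against 17.0%, and YARS2 stood at -0.24. These enzymes did not share a direction: 13 of 20 lay below the median gene. Against PEN-MUT 0 genes of the assembly, translation factor and synthetase lists were called, where 2.49% of all genes were lower and 16.5% higher. The medians of these lists were -0.08, -0.17 and -0.11, and C1QBP was at -0.29, SLIRP at -0.28, MARS2 at -0.19 and AARS2 at 0.23.

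Among 5 genes of mitochondrial transcription the median was -0.02. TFB2M (-0.50 ± 0.07) and TFAM (-0.35 ± 0.02), factors that start transcription of the mitochondrial genome, were called lower, 2 of 5 against 5.67% of all genes. POLRMT, the polymerase itself, was at 0.02 ± 0.03 and MTERF at 0.08 ± 0.08. TFAM had 5068 normalized counts with PEN-FFW, 6489 with PEN-WT, 7132 with PEN-MUT and 7780 with PEN, in the order that MRPL3 showed. Against PEN-MUT 0 of the 5 genes were called, where 2.49% of all genes were lower and 16.5% higher. Their median there was 0.06, with TFB2M at -0.32, just short of the threshold, and TFAM at -0.19. The 13 mRNAs of the mitochondrial genome are not analysed here.

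Of 8 nuclear regulators of mitochondrial genes above the filter, MYC was lowest with 3054 normalized counts with PEN-FFW, 3878 with PEN-WT, 4363 with PEN-MUT and 6109 with PEN. PEN stood apart as the highest, and the differences from PEN were -0.73 ± 0.03 in PEN-FFW, -0.68 with PEN-WT and -0.51 with PEN-MUT. GABPB1 (-0.49 ± 0.05) was also called lower in PEN-FFW against PEN, so that 2 of 8 were, against 5.67% of all genes. GABPA was at -0.26 ± 0.06 and PPARGC1B at 0.25 ± 0.06. Against PEN-MUT 0 of the 8 were called lower, against 2.49% of all genes: MYC was at -0.22, GABPB1 at -0.26 and GABPA at -0.19. There 2 of the 8 were called higher, against 16.5% of all genes. These were PPARGC1B at 0.66 ± 0.07 and PPRC1, a related coactivator named after its values were seen, at 0.44 ± 0.03. YY1 was at -0.03 ± 0.03 against PEN and -0.04 against PEN-MUT, and NRF1 at 0.06 ± 0.07 and -0.06. The median of the 8 was -0.13 against PEN, with 5 below the median gene. Against PEN-MUT it was -0.07, with 6 below. As background, GABPA and GABPB1 form a factor of the ETS type known to act on mitochondrial genes. Whether any of these regulators had a part in the members' differences was not tested.

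Other large groups of protein subunits took similar values. The 80 cytosolic ribosomal protein genes above the filter had a median of -0.21 in PEN-FFW against PEN and -0.23 against PEN-MUT, with 80 and 79 below the median gene. The 75 nuclear genes of oxidative phosphorylation had -0.15 and -0.25, with 69 and 75 below it. In PEN-MUT against PEN, the cytosolic ribosomal proteins were at 0.04, the oxidative phosphorylation genes at 0.09 and the members at 0.03. The members thus stood beside the cytosolic ribosomal proteins, which have no part in mitochondrial translation. Whether the lists differ was not tested.

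**Figure D5:**
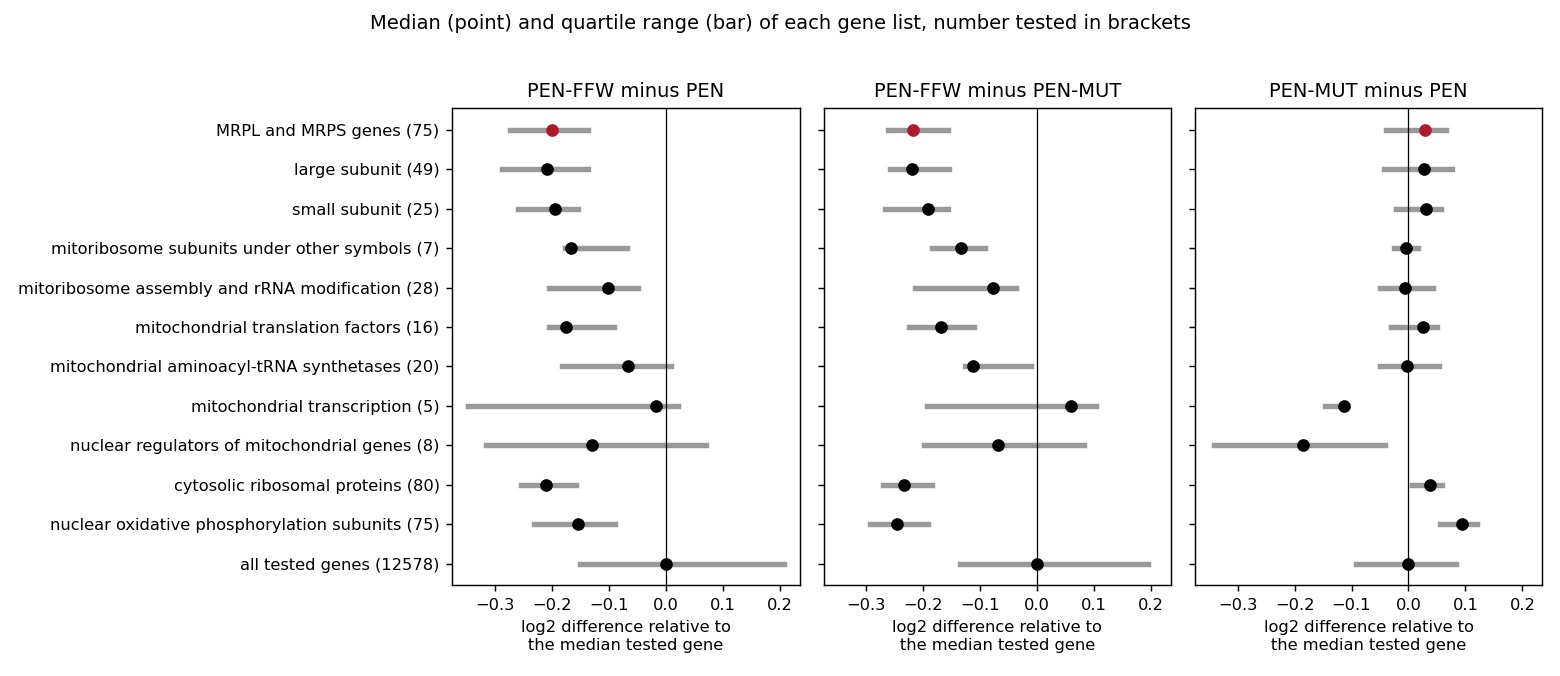
Median (point) and quartile range (bar) of the log2 difference, relative to the median gene, of each gene list in PEN-FFW against PEN, PEN-FFW against PEN-MUT and PEN-MUT against PEN, with the number above the filter in brackets. The MRPL and MRPS genes (red, -0.20, -0.22 and 0.03) lie beside the cytosolic ribosomal proteins (-0.21, -0.23 and 0.04), and the synthetases, assembly and transcription lists lie nearer to 0 in PEN-FFW against PEN.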

How the data were processed

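RNA of 4 SNU398 libraries was analysed, 1 per peptide, so groups hold 1 sample and no test was possible. The 3 chromatin immunoprecipitation samples are not analysed here. The submitters' processing notes name STAR 2.4.0i, featureCounts 1.5.0-p1 and the build hg19. No annotation, strand setting or normalization method was given in the sources used here. The table deposited by the authors holds log2 values with a lowest value of 2.32 (log2 of 5). Undone, 100% of values above it were whole multiples of a step per library (tolerance 0.1 read): 0.923 for PEN-FFW, 0.776 for PEN-WT, 1 for PEN-MUT and 0.840 for PEN. The deposited log2 values are thus logs of scaled reads, called normalized counts here. With 1 library per peptide, no count model could be fitted to the recovered reads.

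Differences are log2(normalized count + 10) relative to the median of 12578 genes with a mean of at least 50, with Poisson standard errors. Counting intervals are at 95% and cover counting error only. The procedure was tested on simulated data. Transcript lengths and gene coordinates came from GENCODE 44 on GRCh37, and promoters from RefSeq on GRCh38.p14. Older symbols were matched through RefSeq synonyms: 1531 genes needed a synonym, 20574 matched directly and 1605 had no match. Python 3.11.15, numpy 2.4.6, pandas 2.3.3 and scipy 1.17.1 were used.

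The text names the 5 members highest and lowest per kilobase, the 4 highest and 4 lowest in each of the 6 pairs, every member called in PEN-FFW against both PEN and PEN-MUT, the MRPS18 paralogs, MRPS30, MRPS36, MRPL10 and MRPL12, and at most 4 genes per related list. MRPL17, MRPL38, MRPL50, MRPS11, YY1, NRF1 and the neighbour genes were named after their values were seen. Members, lists and sequences searched were chosen with earlier results of these data known. Alternatives were another pseudocount, scaling, filter, fold threshold, member list, and comparison with genes of like GC content, count or length in 20 bins.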

Additional observations from a re-analysis of the deposited data

How the results depend on the processing

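Medians and class differences over the members counted as staying when they moved by at most the 95% counting half-width of a typical single member. That half-width was 0.08 to 0.09, depending on the pair. It is not the error of a median or class difference, so the rule is loose. Counts stayed when within 1.5 times the count reported, and summed reads when within their own counting interval. By these rules 299 values under an alternative stayed and 23 did not. For single members, judged by their own half-width, 338 stayed and 82 did not, 42 of them without centring on the median gene. No value that was past a threshold changed sign, and the members' medians kept theirs in each pair with PEN-FFW or PEN-WT first. On the authors' scale as deposited, the members' medians were -0.47 in PEN-FFW against PEN, -0.52 against PEN-MUT and -0.41 against PEN-WT. There 67, 70 and 65 members were called lower, where 41.3%, 45.6% and 44.8% of all genes were. In PEN-FFW against PEN the count called lower (11 as reported) was 3 with RPM scaling (3.24% of all genes), 25 with no filter (9.03%), 5 with a filter at 200 (4.18%) and 5 relative to genes of the same mean count (7.35%). Against PEN-MUT (5 as reported) it was 8 with median-ratio size factors (4.01% of all genes), 3 with RPM scaling (1.44%), 22 with no filter (6.03%), 8 against genes of like GC content (3.07%) and 3 relative to genes of the same length (1.72%), where the median was -0.12. The share of all genes called thus moved with these settings too. Against PEN-WT (2 as reported) it was 1 relative to genes of the same length (0.891%). At 1.5-fold and at 2-fold it was 0 in all 3 comparisons. The cause of these shifts was not tested; centring moves every gene of a pair by the same amount by construction. No paired analysis was possible because each peptide had 1 library, and for the same reason no replicate could be left out. Depth limits single members: the 95% counting half-width of the typical member was 0.09 in PEN-FFW against PEN, so differences between neighbours in the order of members are within counting error, and the spread between cultures is unknown.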

Other observations

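The table also holds pseudogene and antisense rows with MRPL or MRPS symbols. MRPL45P2, a pseudogene of MRPL45, had 182 normalized counts with PEN-FFW, 165 with PEN-WT, 163 with PEN-MUT and 145 with PEN. It was highest in PEN-FFW, where MRPL45 itself was lowest, and its difference relative to the median gene was 0.58 ± 0.14 (counting SE) in PEN-FFW against PEN. MRPS31P5, a pseudogene of MRPS31, had 174 with PEN-FFW, 199 with PEN-WT, 197 with PEN-MUT and 165 with PEN, a difference of 0.35 ± 0.14. How far reads of the parent genes and these copies were mixed in the counting was not tested. URGCP, the other gene of the MRPS24 readthrough, had 793 with PEN-FFW, 929 with PEN-WT, 939 with PEN-MUT and 983 with PEN. MRPS24 itself and the readthrough URGCP-MRPS24 stood at or near the lowest value of the table.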
